A study of Caenorhabditis elegans with 8 samples.

Results

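Cuticle collagen genes were examined for recruitment of DAF-16, the worm's FOXO factor, in Caenorhabditis elegans. Members were the genes whose symbol in either deposited peak list starts with col-, or is sqt-1, sqt-3, rol-6, bli-1, bli-2 or dpy-7, and every peak assigned to them was kept. This gave 14 of the 6859 peaks in daf-2(-) and 22 of the 5396 peaks in wild type (WT), at 23 genes in all. A current gene table names 165 genes of this kind, of which 162 are protein-coding and 3 are pseudogenes, so 142 had no peak assigned under such a name in either list.

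Endogenous DAF-16 was immunoprecipitated with its chromatin and the DNA was sequenced (ChIP-seq). Mixed-stage cultures were grown at 20 °C on OP50 bacteria, and whole worms were homogenised and cross-linked. The strains were daf-2(-), in which the insulin/IGF-1 receptor gene carries e1370 and insulin signalling is low, the double mutant daf-16(-);daf-2(-), with alleles mgDf50 and e1370, the single mutant daf-16(-), with mgDf50, and WT, which is N2. Each strain had 1 ChIP library made from pooled material and 1 input library, so no spread between replicates can be given and no p-value was computed. As the study describes its lists, the daf-2(-) list lacks peaks that coincided with double-mutant peaks, and the WT list lacks those that coincided with daf-16(-) peaks. The lists hold only tags inside peaks, 1051563 in daf-2(-) and 1315194 in WT, and the libraries' total depth was not used here.

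The cuticle of the worm is a collagen-rich coat that the epidermis, or hypodermis, secretes anew for the embryo and at each moult. Its collagens come from a large family of mostly short genes, expressed in pulses timed to the moulting cycle, and their chains are hydroxylated, trimmed by subtilisin-like and astacin proteases and cross-linked after secretion. Mutants in single members change the shape of the body, which gave the names squat (sqt), roller (rol), blister (bli) and dumpy (dpy). Low insulin signalling extends life span through DAF-16, and the regulator SKN-1 is known to keep a set of collagen genes, among them col-10, col-13 and col-120, expressed in long-lived daf-2 mutants.

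The first question was how many collagen genes carry a DAF-16 peak. In daf-2(-), 14 of 165 genes had an assigned peak, or 8.48% (95% Wilson interval 5.12 to 13.7), against 18% of all 19983 protein-coding genes. In WT, 20 of 165 genes had one, or 12.1% (7.99 to 17.98), against 15% of all protein-coding genes. The daf-2(-) share of the family thus lay below that of all coding genes with an interval that does not reach it, while the WT interval includes the value for all coding genes. Over all coding genes the daf-2(-) list named more genes than the WT list, and among collagen genes it named fewer, although the family's intervals for daf-2(-) and WT overlap. All intervals cover counting error only. The 165 genes include 3 pseudogenes and were matched by list symbol, while coding genes were matched by symbol or sequence name. Matched by either name, the family had 15 genes with a peak in daf-2(-) and 21 in WT. The chromatin came from whole worms, so occupancy in fewer cells and weaker occupancy in each cell cannot be told apart.

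**Figure D1:**
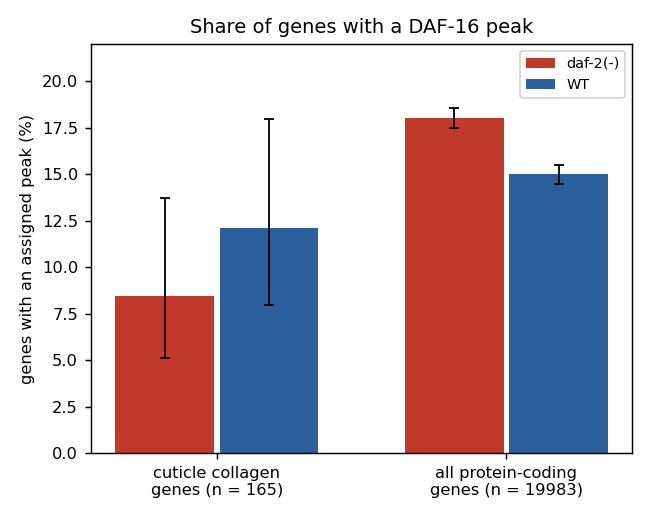
Percent of genes with at least 1 assigned DAF-16 peak (vertical axis) among the 165 cuticle collagen genes and the 19983 protein-coding genes, in daf-2(-) (red) and WT (blue). Bars are shares and error bars are 95% Wilson intervals. The collagen bars stand at 8.48% in daf-2(-) and 12.1% in WT, beside 18% in daf-2(-) and 15% in WT over all coding genes.

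By symbol, 11 collagen genes were named in both lists: col-10, col-39, col-55, col-72, col-91, col-98, col-103, col-142, col-160, col-166 and col-181. These are 78.6% of the 14 daf-2(-) genes and 55% of the 20 WT genes. Over all protein-coding genes, 72.2% of those in daf-2(-) were also in WT and 86.7% of those in WT were also in daf-2(-). By symbol, col-3, col-50 and col-78 were named in daf-2(-) alone, and col-17, col-74, col-76, col-80, col-90, col-94, col-95, col-117 and sqt-3 in WT alone. The difference at col-3 and col-117 is one of naming and is described below.

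Of the 6 members named for a body shape, only sqt-3, a cuticle collagen processed by the astacin protease of the dpy-31 gene, had a peak, and it had it in WT only. The other 5 had none in either list. They are rol-6 and sqt-1, whose mutants twist helically, bli-1 and bli-2, which form the struts of the adult cuticle, and dpy-7, a collagen of the annular furrows. Also without an assigned peak were col-19, an adult-stage collagen, and col-13, col-120 and col-144. The gene col-42 stands in the lists under its sequence name Y69H2.14 and therefore falls outside the rule. It had a shared peak centred 666 bp upstream of the transcription start site (TSS) in daf-2(-) (fold enrichment 9.60) and 678 bp upstream in WT (9.46), and with it the family would count 15 genes in daf-2(-) and 21 in WT.

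Peaks were then compared as intervals, where a peak is shared if it overlaps a peak of the other list by at least 1 bp. In daf-2(-), 12 of 14 collagen peaks were shared, or 85.7% (60.1 to 96.0), against 70.6% of all daf-2(-) peaks. In WT, 12 of 22 collagen peaks were shared, or 54.5% (34.7 to 73.1), against 87.4% of all WT peaks. The 12 regions were the same from either side, and each peak had 1 partner. The collagen peaks of WT were therefore shared less often than WT peaks in general, and the interval around their share does not include the value of the whole list.

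Fold enrichment, the authors' ratio of the summit to the local background estimated from the input, differed between shared and WT-only collagen peaks. In WT, the 6 collagen peaks of fold enrichment 10 or more were all shared, while 6 of the 16 below 10 were, or 37.5% (18.5 to 61.4). Among all WT peaks below 10, 74.8% were shared, or 1833 of 2449. Over the whole WT list 4717 of 5396 peaks were shared, so nearly all of the 2947 at 10 or more were. The full sharing of the 6 collagen peaks at 10 or more is therefore close to that of the list. In daf-2(-), 8 of the 10 collagen peaks below 10 were shared, against 61.4% of all daf-2(-) peaks below 10. The lower sharing of WT collagen peaks was thus found among those below 10, and their interval does not reach the value of all WT peaks below 10. Within this class the collagen peaks were not matched to other peaks of the same fold enrichment.

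**Figure D2:**
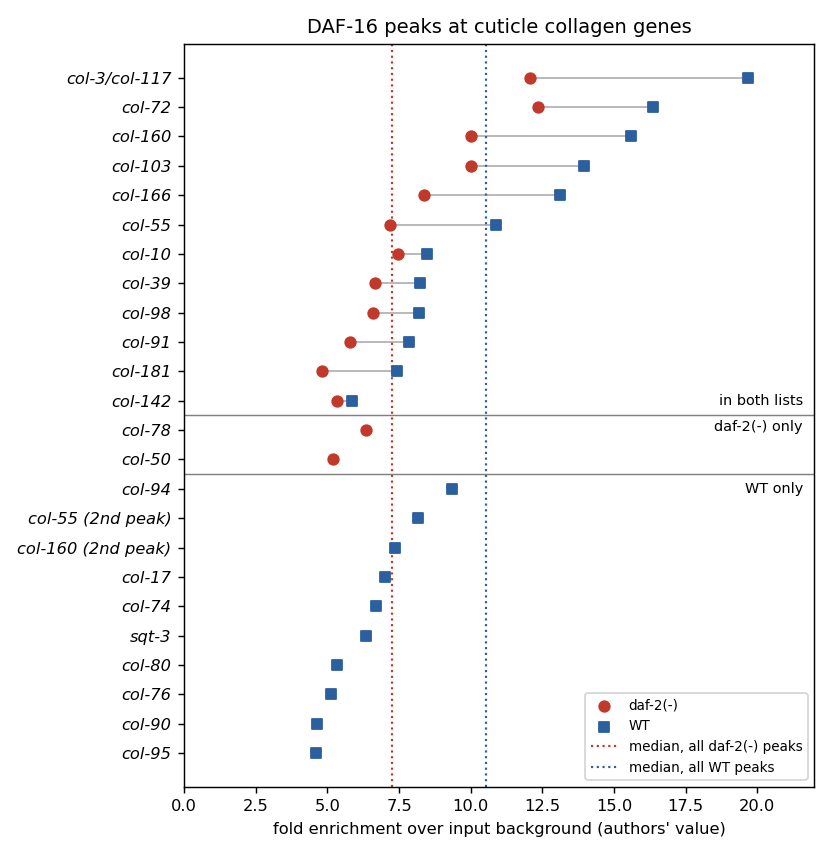
Fold enrichment (horizontal axis, linear) of every DAF-16 peak at a cuticle collagen gene, in daf-2(-) (red circles) and WT (blue squares). Grey lines join shared peaks, dotted lines mark the medians of all peaks in each list, 7.24 in daf-2(-) and 10.5 in WT, and the lower blocks hold peaks of 1 list. The joined circles lie left of the squares in all 12 regions, and all WT-only squares lie left of the WT median.

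The region with the largest fold enrichment in WT was one that col-3 and col-117 share, and in daf-2(-) it came after col-72. Coordinates here and below are those of the deposited lists, on genome release WS230. The genes col-3 and col-117 are neighbours, transcribed away from each other on chromosome IV with 630 bp between their start sites. In daf-2(-) the peak spanned chrIV:8824141-8824884, was assigned to col-3 (WBGene00000594) at 291 bp upstream, and had a summit height of 88 and a fold enrichment of 12.1. In WT it spanned chrIV:8824071-8824886, was assigned to col-117 (WBGene00000691) at 304 bp upstream, and had a height of 154 and a fold enrichment of 19.7, the largest value at any collagen gene. The summits lay 5 bp apart. The summit therefore lay between the start sites in either strain, the peak reached past both of them, and the nearest-TSS assignment gave it to a different gene in each list.

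At col-72 (WBGene00000648, chromosome II), the daf-2(-) peak had the largest fold enrichment of the family in that list. It spanned chrII:3520726-3521954, was centred 48 bp downstream of the TSS with its summit 297 bp upstream, and had 190 tags and a fold enrichment of 12.4. The WT peak, chrII:3520992-3521879, had its summit 233 bp upstream, 255 tags and a fold enrichment of 16.4. Its gene model is only 649 bp long, and the peaks covered 100% of it in daf-2(-) and 61.2% in WT.

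Further strong shared peaks stood at col-103, col-160 and col-166. At col-103 (WBGene00000677, chromosome IV) the peak was centred 105 bp upstream with 130 tags and a fold enrichment of 10.01 in daf-2(-), and 151 bp upstream with 198 tags and 13.9 in WT. At col-166 (WBGene00000739, chromosome X) it was centred 24 bp downstream of the TSS with 142 tags and a fold enrichment of 8.37 in daf-2(-), and 36 bp downstream with 293 tags and 13.1 in WT. Both genes thus carried the peak at the start of the gene in either strain.

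At col-160 (WBGene00000733, chromosome V) the strong peak lay at the other end of the gene. In daf-2(-), chrV:13200411-13201252 had its summit 145 bp beyond the end of the gene model, 110 tags and a fold enrichment of 10.01. In WT, chrV:13200290-13201327 had its summit 177 bp beyond the end, 227 tags and a fold enrichment of 15.6. WT had in addition a peak at the start of the same gene, chrV:13201866-13202991, centred 239 bp upstream, with 156 tags and a fold enrichment of 7.37, to which no daf-2(-) peak corresponded.

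At col-55 (WBGene00000632, chromosome I) the arrangement was the converse. The shared peak lay upstream, centred at 485 bp with 91 tags and a fold enrichment of 7.20 in daf-2(-), and at 499 bp with 120 tags and 10.9 in WT. The second WT peak, chrI:6199688-6200830, had its summit 174 bp beyond the gene end, 213 tags and a fold enrichment of 8.16. col-55 and col-160 were the only 2 members with more than 1 peak in WT, and no member had more than 1 in daf-2(-).

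The remaining shared peaks had a fold enrichment below 8 in daf-2(-) and below 9 in WT. At col-10 (WBGene00000599, chromosome V), one of the collagen genes known to depend on SKN-1 in daf-2 mutants, the peak spanned chrV:9165083-9165859 in daf-2(-), centred 164 bp upstream, with 89 tags (95% Poisson interval 71.5 to 110), a height of 57 and a fold enrichment of 7.45. In WT it spanned chrV:9164921-9165986, centred 146 bp upstream, with 201 tags (174 to 231), a height of 87 and a fold enrichment of 8.48. The col-10 peak thus stood close to the middle of the daf-2(-) list, at its percentile 52.4 by fold enrichment, and at percentile 30.5 of the WT list.

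At col-39 (chromosome II) the peak was centred 158 bp upstream with 85 tags and a fold enrichment of 6.66 in daf-2(-). In WT it was a wide region of 2156 bp that covered 99.4% of the gene model, with 307 tags, the most of any member, and a fold enrichment of 8.22. The next gene in the same direction, col-80, starts 1183 bp beyond col-39 and had a WT-only peak of its own, centred 108 bp upstream with 162 tags and a fold enrichment of 5.33. At this tandem pair, daf-2(-) therefore had 1 peak of 814 bp at the first gene and WT had peaks at both.

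At col-181 (chromosome X) the daf-2(-) peak of 763 bp had 71 tags and a fold enrichment of 4.8, and the WT region of 2047 bp had 285 tags and 7.41. At col-142 (chromosome V) the daf-2(-) peak of 872 bp had 90 tags and a fold enrichment of 5.35, and the WT region of 1590 bp had 195 tags and 5.87. The WT regions at col-39, col-181 and col-142 were thus the 3 longest of the family. At col-91 (chromosome III) fold enrichment was 5.77 over 832 bp in daf-2(-) and 7.85 over 959 bp in WT. At col-98 (chromosome III) it was 6.58 over 741 bp in daf-2(-) and 8.18 over 722 bp in WT.

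Over the 12 shared regions, fold enrichment, summit height and tags were each lower in daf-2(-) than in WT in 12 of 12. This is to be read against all 4717 shared pairs, where fold enrichment was lower in daf-2(-) in 84.8%, height in 93.4% and tags in 93%. At collagen regions the median of log2 fold enrichment in daf-2(-) over that in WT was -0.46 (95% order-statistic interval -0.64 to -0.30), and it was -0.39 over all pairs, a value that the collagen interval includes. For summit height the medians were -0.59 at collagen regions and -0.53 over all pairs. Adding col-42, whose fold enrichment was higher in daf-2(-), would make it 12 of 13 by fold enrichment. These are values of lists made separately from 1 library each, and no change in recruitment was tested. Heights and tags were not scaled for sequencing depth. The study used counts normalised for depth, input and between samples. With these it reports higher average peaks in daf-2(-) than in WT at coding genes bound in both strains, the opposite direction.

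The lowest ratios were at col-3/col-117 (log2 -0.71, interval from the counts at the summits -1.08 to -0.33), col-166 (-0.65, -1.10 to -0.20) and col-160 (-0.64, -1.06 to -0.22). The highest were at col-142 (-0.13, -0.74 to 0.47), col-10 (-0.19, -0.67 to 0.30) and col-39 (-0.30, -0.80 to 0.19). At 5 of 12 regions daf-2(-) was lower by 1.5 times or more, against 29.7% of all pairs, and at 0 of 12 it was higher by that much, against 1.02% of all pairs. Each of the 12 intervals included the median of all pairs, and 7 lay wholly below 0. At no collagen region, therefore, was the offset from the median of all pairs larger than counting error.

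**Figure D3:**
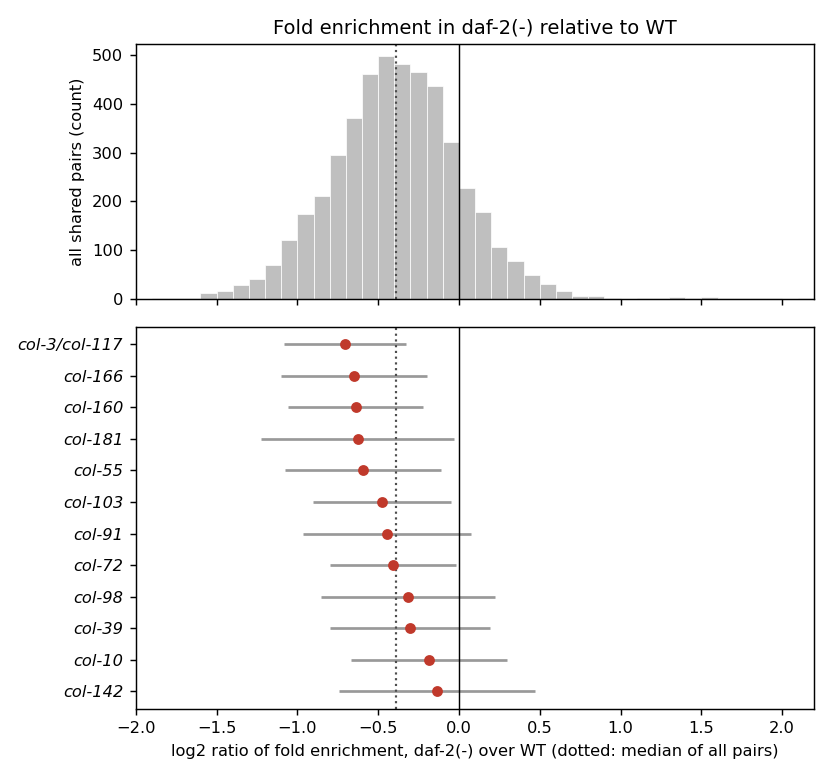
Top: distribution of log2 fold enrichment in daf-2(-) over that in WT, for all 4717 shared pairs (vertical axis, number of pairs per bin). Bottom: the ratio at the 12 shared collagen regions, with 95% intervals from the counts at the summits; the dotted line is the median of all pairs (-0.39) and the solid line is 0. All 12 points lie left of 0 and every interval crosses the dotted line.

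The median log2 ratio of tags was -0.97 at collagen regions (-1.18 to -0.42) and -0.56 over all pairs, with the extremes at col-181 (-2.01) and col-39 (-1.85). Peak length went with it. The daf-2(-) peak was shorter in 10 of 12 regions, it lay wholly inside the WT interval in 10 of 12, and the median log2 ratio of length was -0.25 at collagen regions and -0.12 over all pairs. The 10 of 12 counts were not taken over all pairs. Peaks were longer in WT over the whole lists too, with medians of 835 bp in daf-2(-) and 960.5 bp in WT. The tags of a pair were thus counted over unequal lengths at the wide WT regions, and the interval of the tag ratio at collagen regions includes the value for all pairs.

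The summits of shared regions lay close together. Their separation ranged from 5 bp at col-3/col-117 to 96 bp at col-181, with a median of 61 bp (24 to 78) against 37 bp over all pairs. All 12 lay within 100 bp, as did 86.7% of all pairs. In 10 of 12 regions both lists used the same TSS, a count that was not taken over all pairs. At col-181 the daf-2(-) peak was measured from the TSS of a longer gene model, 4 bp upstream, and the WT peak from that of a shorter one, 316 bp downstream.

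The WT-only peaks came next. They numbered 10, at col-17, col-55, col-74, col-76, col-80, col-90, col-94, col-95, col-160 and sqt-3, and 8 of them were at a gene with no other peak in either list. Their fold enrichment ranged from 4.60 to 9.34 with a median of 6.54, against 9.68 at the shared WT collagen peaks. All 10 lay below the WT median of 10.5. The same order held over the whole WT list, with a median of 7.16 at all WT-only peaks and 11.3 at all shared peaks. The WT-only collagen peaks held a median of 160 tags (131 to 189), against 131 at all WT-only peaks. The shared WT collagen peaks held a median of 214, against 195 at all shared WT peaks, and the WT list 184.

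The strongest was at col-94 (WBGene00000669, chromosome III), chrIII:10987459-10988355, centred 64 bp upstream of the TSS, with 182 tags (157 to 210) and a fold enrichment of 9.34. Of the genes with a WT-only peak and nothing else, col-17 (chromosome II) had 7.00, with the summit 152 bp beyond the gene end, and col-74 (chromosome II) had 6.71, centred 822 bp upstream, the farthest upstream of all members. The sqt-3 peak (WBGene00005018), chrV:12353667-12354917, had its summit 148 bp beyond the end of the gene model, 179 tags (154 to 207) and a fold enrichment of 6.36. It covered 65.2% of the gene, and it left out the assigned TSS, lying over the body and the end of sqt-3.

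The weakest were at col-95, col-90 and col-76. At col-95 (chromosome III) the peak was centred 40 bp downstream of the TSS with 189 tags, a height of 39 and a fold enrichment of 4.60. At col-90 (chromosome III) it was centred 284 bp downstream with 158 tags, a height of 45 and 4.62. At col-76 (chromosome II), whose gene model of 3233 bp is the longest among the members with a peak, it lay within the gene with 106 tags, a height of 40 and 5.12. By fold enrichment they stood at percentile 0.547 (col-95), 0.612 (col-90) and 1.77 (col-76) of the WT list.

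A daf-2(-) peak near a WT-only region was sought by the nearest summit. At 6 of the 10 no daf-2(-) summit lay within 8 kb, and the nearest were 9002 to 19921 bp away. At the other 4, col-55, col-80, col-94 and col-160, it lay 1654 to 2277 bp away. For col-94 that summit belonged to a peak assigned to W05B2.8. The W05B2.8 peak had a fold enrichment of 7.54 in daf-2(-) and 7.57 in WT, so a peak at the neighbouring gene stood in both lists while the one at col-94 stood in WT alone. The 8 kb limit was not planned. The same distances were not computed for all 679 WT-only peaks, so they are not set apart as particular to collagen genes.

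In daf-2(-) alone, 2 collagen peaks were found, and both lay beyond the end of the gene they were assigned to. At col-50 (WBGene00000627, chromosome I) the summit was 364 bp past the gene end, with 94 tags (76.0 to 115) and a fold enrichment of 5.21. At col-78 (WBGene00000654, chromosome II) it was 1022 bp past the gene end, with 78 tags (61.7 to 97.3) and 6.36, and the peak did not touch the gene model. No collagen peak found in daf-2(-) alone therefore lay upstream of a TSS. This rests on 2 peaks, and the share over all daf-2(-)-only peaks was not computed.

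The position of the summit along the gene was compared across all members. In daf-2(-), 9 of 14 summits lay upstream of the TSS (67.2% of all daf-2(-) peaks), 2 within the gene model (19.6%) and 3 beyond its end (13.2%). In WT, 13 of 22 lay upstream (66.7% of all WT peaks), 5 within (20.3%) and 4 beyond (13%). Upstream summits ranged from 12 to 513 bp from the TSS in daf-2(-) and from 47 to 823 bp in WT. Of the 12 shared regions, 8 had the summit upstream in both lists, and of the 10 WT-only peaks 4 had it upstream. These shares were not computed for all shared or all WT-only peaks, so the contrast is not set apart as one of collagen genes.

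By the centre of the peak, as deposited, 9 of 14 daf-2(-) peaks lay within 0.5 kb upstream of the TSS, or 64.3% (38.8 to 83.7), against 37% of all daf-2(-) peaks. In WT this was 9 of 22, or 40.9% (23.3 to 61.3), against 36.5% of all WT peaks. Only the daf-2(-) interval leaves out the value of its list. With the distance taken from the summit this no longer held. The collagen share was then 57.1% in daf-2(-) (32.6 to 78.6, list 35.9%) and 50% in WT (30.7 to 69.3, list 36.7%). The study places the majority of daf-2(-) peaks within 0.5 kb upstream, a larger share than the 37% counted here from the deposited distances. The reason for this difference was not examined. Collagen genes with a peak are short, with a median model of 1181 bp over the daf-2(-) peaks and 1118 bp over the WT peaks, against 1737 bp for all daf-2(-) and 1711 bp for all WT peaks. The peaks themselves had median lengths of 810 bp in daf-2(-) and 1051.5 bp in WT. Of them, 12 of 14 daf-2(-) peaks and 20 of 22 WT peaks overlapped the gene model. This overlap was not counted over all peaks of either list, so it is not set apart as one of collagen genes.

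**Figure D4:**
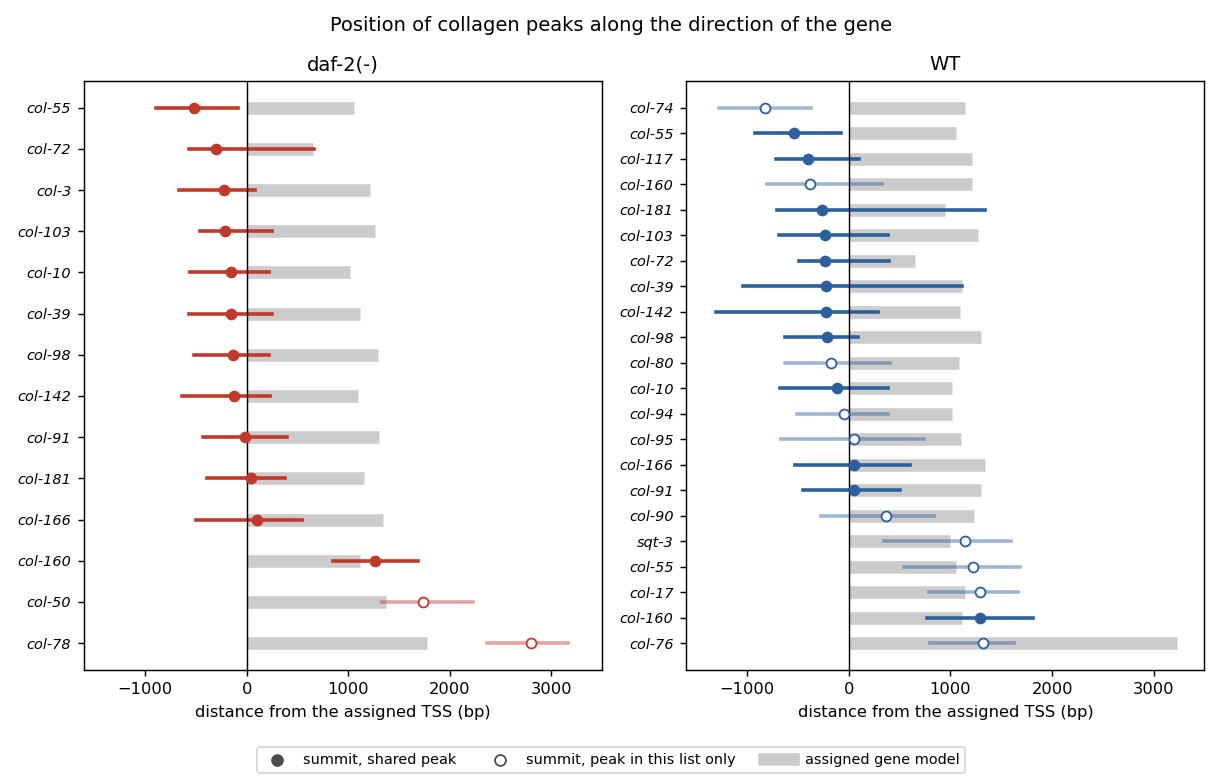
Position of each collagen peak along the direction of its gene, in daf-2(-) (left, red) and WT (right, blue). The horizontal axis is the distance from the assigned TSS in bp, coloured lines are peak intervals, circles are summits (filled for shared peaks, open for peaks of that list only) and grey bars are the assigned gene models. In daf-2(-) 9 of 14 summits lie upstream, and the open circles lie past the gene end; in WT the open circles spread from 823 bp upstream to 1318 bp downstream.

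In strength, collagen peaks ranged from fold enrichment 4.8 to 12.4 in daf-2(-), with a median of 6.93 (5.35 to 10.01) against 7.24 over the list. In WT they ranged from 4.60 to 19.7, with a median of 8.005 (6.36 to 10.9) against 10.5 over the list. Thus 8 of 14 daf-2(-) peaks and 16 of 22 WT peaks lay below the median of their list, and 0 of 14 in daf-2(-) and 6 of 22 in WT lay in the weakest 10%. At a fold enrichment of 10 or more stood 4 of 14 collagen peaks in daf-2(-) (30.1% of all daf-2(-) peaks) and 6 of 22 in WT (54.6% of all WT peaks). The interval around the WT median includes the median of the WT list, while the WT share at 10 or more (13.2 to 48.2%) lies below that of the list.

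The shape of the peaks was described by the summit height per 100 tags. Its median was 57.4 at daf-2(-) collagen peaks (43.3 to 64.0), against 53.8 over the list, and 40.5 at WT collagen peaks (29.3 to 51.1), against 50.5 over the list, so both intervals include the value of the list. Among WT collagen peaks it was 47.2 at shared and 35.3 at WT-only peaks, and it was lowest at col-95, with 20.6. By tags, 11 of 22 WT collagen peaks lay below the WT median of 184, while by height 16 of 22 lay below the WT median of 90. The background, computed as height over fold enrichment, had a median of 7.29 tags at daf-2(-) collagen peaks (7.44 over the list) and 8.28 at WT collagen peaks (8.22 over the list). It was highest at col-39 (10.9), col-10 (10.3) and col-80 (10.1), all in WT. The median height of WT collagen peaks was 67 (54 to 90), an interval that reaches the list's 90, and the part of peak length and background in these values was not tested.

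**Figure D5:**
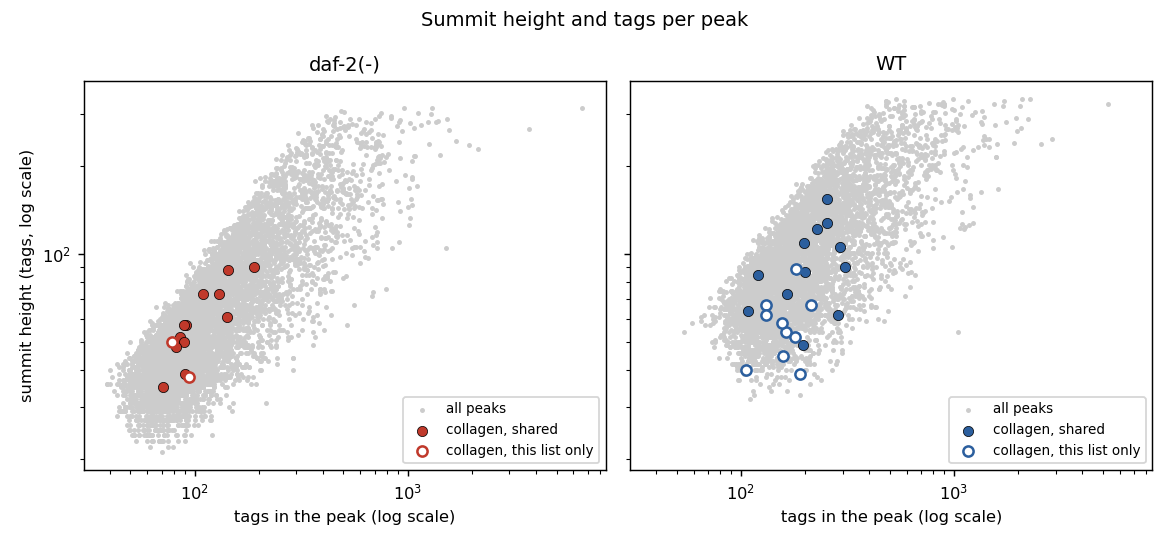
Summit height against tags per peak, both on log scales, in daf-2(-) (left) and WT (right). Grey points are all peaks of the list, filled circles shared collagen peaks and open circles collagen peaks of that list only. In WT the open circles lie between 106 and 213 tags with heights of 39 to 89, along the lower side of the cloud for several of them.

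Collagen genes often lie beside each other. Of the 162 protein-coding members, 46 had another member as the next protein-coding gene in the order of the gene table. Of the 23 with a peak, 11 did, among them col-10, col-50, col-94, col-95 and col-142, whose neighbouring collagen gene had no peak. Only the neighbours col-39 and col-80 each had a peak of its own, and these stood together in WT alone, since the region between col-3 and col-117 is a single one named for a different gene in each list. The neighbour count was not tested.

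Other genes of the cuticle and other collagen genes were examined from lists. Of 15 cuticle collagens with other names, only dpy-10, a furrow collagen, had a peak, centred 51 bp downstream of the TSS in daf-2(-) with a fold enrichment of 4.05 and 89 bp downstream in WT with 6.65. Of 3 basement membrane collagens (emb-9, let-2, cle-1) and of 10 other cuticle proteins such as the cuticlins, 0 had a peak in either list. The 15 collagens with other names, 14 of them found in the gene table, thus had a share of 6.67% in either list. Beside this stand 18% of all coding genes in daf-2(-) and 15% in WT. These lists are too short to be set apart by their shares.

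Among 14 genes for processing and cross-linking of collagen, 5 had a peak in daf-2(-) and 3 in WT. These are 35.7% in daf-2(-), beside 18% of all coding genes, and 21.4% in WT, beside 15%, from a list too short to be set apart by its share. The gene dpy-11, which encodes a thioredoxin-like protein of the hypodermis, had its stronger peak around the TSS with a fold enrichment of 6.86 in daf-2(-) and 13.04 in WT. The subtilisin-like protease gene bli-4 had a shared peak with 4.11 in daf-2(-) and 8.77 in WT. Peaks at phy-2, a prolyl 4-hydroxylase (2.99), and bli-3, the dual oxidase that cross-links tyrosines (6.72), were assigned in daf-2(-) alone. At pdi-2, a protein disulphide isomerase, the peaks of the lists were at different positions, 797 bp downstream in daf-2(-) (4.25) and 2181 bp downstream in WT (9.58).

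Among 13 regulators of the epidermis and of moulting, 6 had a peak in daf-2(-) and 5 in WT. These are 46.2% in daf-2(-), beside 18% of all coding genes, and 38.5% in WT, beside 15%, again from a short list. They were the moulting receptor nhr-23 (fold enrichment of the strongest peak 9.97 in daf-2(-), 14.7 in WT), the Grainyhead gene grh-1 (8.64 in daf-2(-), 12.3 in WT), skn-1 (11.6 in daf-2(-), 17.1 in WT), the BMP pathway Smad sma-3 (13.4 in daf-2(-), 14.9 in WT) and its cofactor sma-9 (26.2 in daf-2(-), 23.5 in WT). The hypodermal GATA factor elt-3 had an assigned peak in daf-2(-) only (6.31), which overlapped a WT peak given to another gene. Several of these genes also had weaker peaks, among them nhr-23 (8.32 and 4.43 in WT), skn-1 (5.67 in daf-2(-)) and sma-9 (down to 3.52 in daf-2(-) and 4.86 in WT).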

How the data were processed

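The authors trimmed adapters with Cutadapt, aligned reads to genome release WS230 with Bowtie 0.12.7, called peaks against the input of each strain with MACS 1.4.2 and gave each peak to the nearest TSS with PeakAnnotator. The deposited lists give tags as read counts per peak, summit height as signal, fold enrichment as a ratio to the local background, and the false discovery rate as a percent. Columns were taken to be those of the strain their names give. A deposited density table holds 1 value column that names no sample, and it was not used. Members and gene lists were chosen with earlier results of these data known. Values were printed in full for genes not named col-, the 5 strongest peaks per list, genes with several peaks, the 5 strongest unshared peaks, the 3 highest and 3 lowest ratios, and collagen genes tied to daf-2 life span.

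Overlaps, distances and medians were computed in Python 3.11.15 (pandas 2.3.3, scipy 1.17.1) and tested on simulated data. Shares have 95% Wilson intervals, medians exact order-statistic intervals, and tags exact Poisson intervals. Intervals of ratios used summit heights in place of the tags first planned, because fold enrichment is computed from the height. The family was counted in a RefSeq gene table of assembly WBcel235, used for names and gene order only, to which 98.7% of daf-2(-) and 98.8% of WT peaks were matched. Neither a set test nor a p-value was computed. A planned search for forkhead and GATA motifs was not run, because promoter sequences were not used here.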

Additional observations from a re-analysis of the deposited data

How the results depend on the processing

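Of 31 alternatives, 24 stayed within the error of the reported value, 7 moved it and 0 reversed its direction. Several of the 24 could not have moved it, because they kept every collagen peak or pair. A false discovery rate limit of 1% removed none, as the highest value was 0.09% in daf-2(-) and 0.44% in WT. Limiting the ratios to pairs with 1 partner or with summits within 100 bp kept all 12 pairs, and no daf-2(-) member had more than 1 peak. Limited to fold enrichment of 10 or more, 4 genes had a peak in daf-2(-) and 6 in WT, the shared share was 100% in daf-2(-), whether the limit was set in both lists or in daf-2(-) alone, and 100% in WT with the limit in WT alone. Most peaks of 10 or more were shared over either whole list as well. With the limit in both lists the shared share of collagen peaks was 66.7% in WT. The WT share within 0.5 kb upstream was then 66.7% of 6 peaks. The median log2 ratio was -0.97 with tags in place of fold enrichment. Matching by sequence name and setting the limit in the counted list alone were chosen after seeing the data. Requiring 50% overlap or summits within 100 bp left the shared shares at 85.7% in daf-2(-) and 54.5% in WT. No paired analysis was possible because there was a single ChIP library for each strain. With 14 peaks in daf-2(-) and 22 in WT, the intervals on shares are wide, and a gene without a peak may be bound below the authors' threshold.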

Other observations

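Peaks given to other genes stood within 3 kb of several collagen start sites. The highest WT value was beside col-72, where a peak assigned to W09G10.t3 had a fold enrichment of 12.2 in daf-2(-) and a peak assigned to clec-126, a C-type lectin gene, had 25.2 in WT. Their summits lay 2303 bp (daf-2(-)) and 2297 bp (WT) downstream of the col-72 start site. The lists thus named nearly the same position for different genes, as between col-3 and col-117. Beside col-98, peaks assigned to F14F7.6 had a fold enrichment of 13.7 in daf-2(-) and 20.6 in WT, and peaks assigned to cyp-13A11, a cytochrome P450 gene, had 11.7 in daf-2(-) and 9.59 in WT. Both were above the values of col-98 itself, 6.58 in daf-2(-) and 8.18 in WT. Beside col-166, peaks assigned to T07H6.8 had 11.7 in daf-2(-) and 13.9 in WT. Beside col-91, peaks assigned to mrps-9, a mitochondrial ribosomal protein gene, had 7.07 in daf-2(-) and 10.2 in WT. The nearest-TSS rule gives each peak to a single gene, so these were not counted for the collagen genes.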
